A study of Rattus norvegicus with 4 samples.

Results

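Nuclear receptors are transcription factors, most of which are switched by small lipophilic molecules such as steroids, thyroid hormone, retinoids, vitamin D, oxysterols and fatty acids. Most members bind DNA through a conserved zinc-finger domain, as homodimers, as monomers or as partners of a retinoid X receptor, and exchange corepressors for coactivators when a ligand is bound. In macrophages of the lung they are best known for the control of lipid handling and for the restraint of inflammatory genes by glucocorticoids. A list of 44 nuclear receptor genes was matched to the array by RefSeq transcript accession, and 40 of them had at least one probe, out of 16581 named genes. The 40 genes were represented by 59 of 45598 probes and by 78 of 58717 non-control spots. No probe was matched for Rora, Nr2e3, Hnf4g and Nr6a1, which are not analysed here, and Pparg was left out of the list.

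All values come from NR8383 cells, a macrophage line established from rat lung lavage, which grew partly attached and partly floating. The cells were treated with Printex90, a carbon black of nanometre-sized particles, at 0.9 cm2/cm2 for 4 h, and the labels give the abbreviation ALI and 20 passages. The 4 samples are biological replicates per the design text, with 1 array each, and are called replicates 1 to 4. They form the only group of arrays used here, so an effect of the particles could not be measured. A line in culture is 1 genetic source, and its arrays say nothing about other macrophages.

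The scanner software flagged between 8917 and 9985 named genes per array as well above background, which is called detected below. Of 12 macrophage markers 10 were detected on all 4 arrays, among them Cd68 at a level of 7.56 ± 0.21, Csf1r at 1.24 ± 0.18 and Cd14 at 2.39 ± 0.19 (SD, n = 4). A level is the log2 intensity relative to the 75th percentile of the array, so that 0 lies at that percentile. Markers of other sources were found in 1 of 10 lung epithelial genes (Foxj1), 1 of 6 fibroblast genes (Dcn), 3 of 6 endothelial genes (Pecam1, Cdh5 and Vwf) and 2 of 6 T and B cell genes (Cd3d and Lck). No neutrophil gene of 5, no hepatocyte gene of 6 and 1 steroidogenic gene of 6 (Cyp21a1) were detected on all 4 arrays. Of all named genes 50.8% were detected on all 4 arrays. The first listed markers Sftpc, Col1a1, S100a8, Alb and Cyp11b1 were detected on no array. Pecam1 and Cd3d, the first of the endothelial and of the T and B cell lists, were detected on all 4. Why markers of other sources had a signal in this line was not tested.

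On all 4 arrays, 21 of the 40 measured receptor genes (52.5%) had a detected probe, against 50.8% of all named genes, so the share is near that of the arrays as a whole. Another 13 (32.5%) were detected on no array, against 36.9% of all named genes, and 6 (15%) on 1 to 3 arrays, against 12.3%. With the less strict flag of the scanner software, 4 of the 40 were detected on no array, against 12.2% of all named genes. The 21 detected genes fell on either side of a level of 0. For 11 of them, Thra, Thrb, Rara, Rxrb, Nr1h2, Nr1h3, Nr3c1, Esrra, Nr2c1, Nr2f1 and Nr2f6, the spot's median signal was 7.56 to 341 times its local background. For the other 10, Vdr, Rxra, Ppard, Nr1h4, Nr1d2, Nr3c2, Nr4a1, Nr4a2, Nr2c2 and Nr0b2, it was 1.72 to 3.27 times the background. The 13 genes never detected had ratios of 0.817 to 1.82. As probes differ in how well they bind, levels are not ranked across genes.

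**Figure D1:**
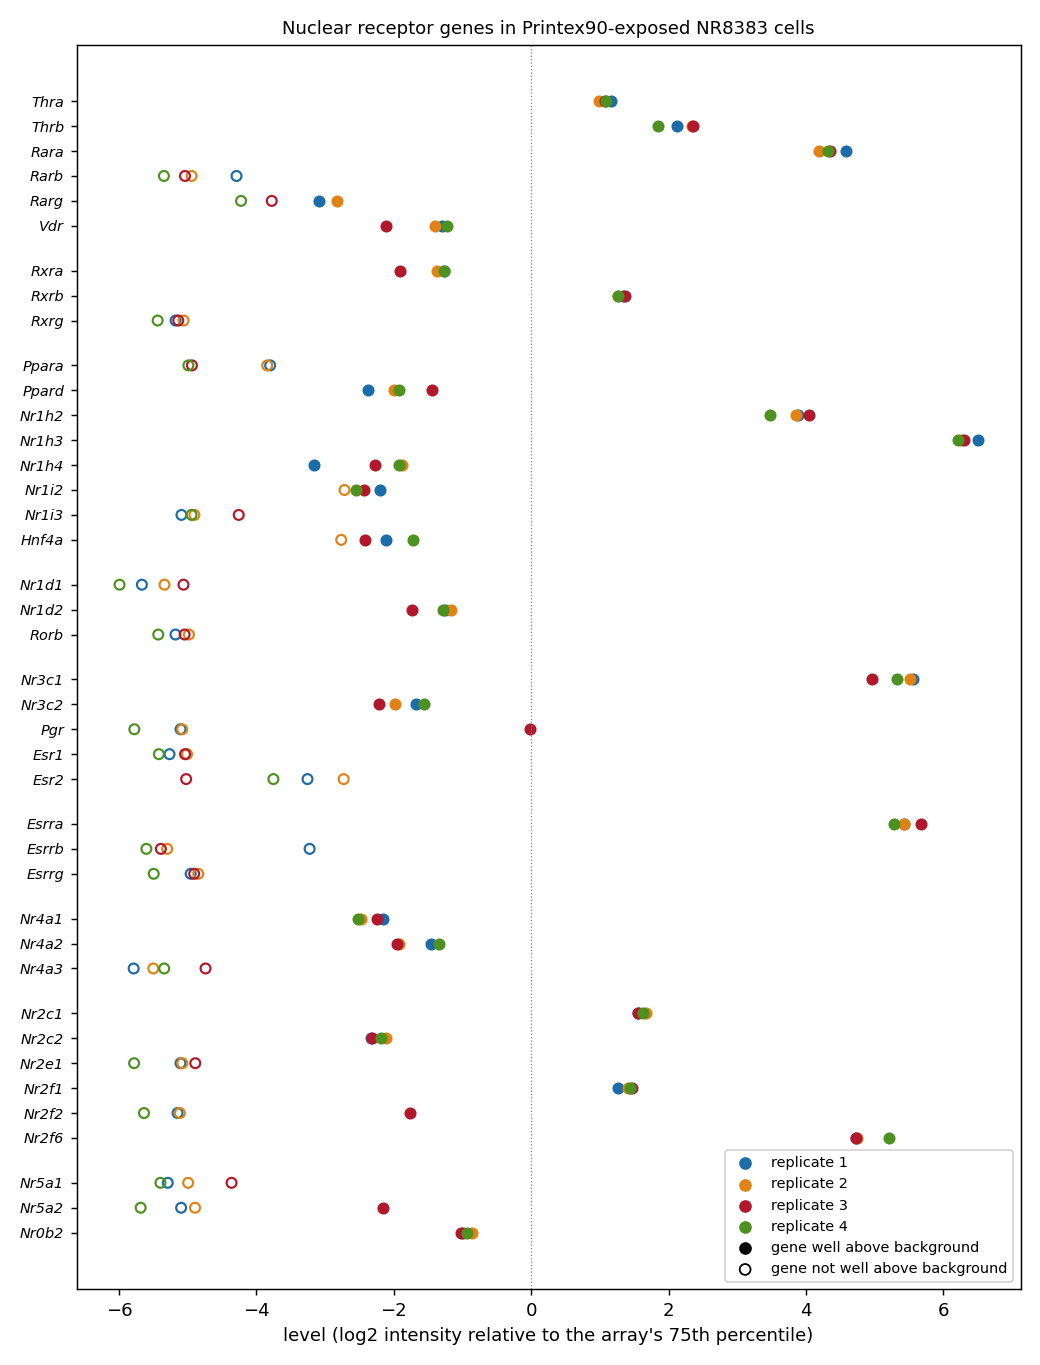
Level of each of the 40 receptor genes on the 4 arrays (x axis, log2 intensity relative to the array's 75th percentile), grouped by role from top to bottom. Filled points mark arrays on which any probe of the gene was well above background, so that Nr1h4 on replicate 1 is filled although the plotted probe was not; 21 genes are filled on all 4 arrays, and Pgr, Nr2f2 and Nr5a2 on replicate 3 alone.

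The oxysterol receptors were both detected. Nr1h3, the liver X receptor alpha that drives cholesterol export in macrophages, had levels of 6.50, 6.25, 6.29 and 6.21 on replicates 1 to 4, a mean of 6.31 ± 0.13 (SD, n = 4). Its intensity lay between 6387 and 9406, and no array stood apart. Nr1h2, the beta form, had levels of 3.89, 3.85, 4.04 and 3.48, a mean of 3.81 ± 0.24 (SD, n = 4), with replicate 4 the lowest.

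Signals were also seen for genes that liver X receptors are known to activate. Of 14 such target genes 10 (71.4%, against 50.8% of all named genes) were detected on all 4 arrays, Nr1h3 itself among them. They included the cholesterol exporters Abca1 at -0.39 ± 0.10 and Abcg1 at 8.34 ± 0.16, and the lipogenic regulator Srebf1 at 3.42 ± 0.14 (SD, n = 4 for each). Apoc1, Scd and Fasn were detected on no array and Arl4c on some. These are levels in exposed cells and do not show the activity of a receptor.

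Ppard, a fatty acid sensor of the PPAR group, was detected on all 4 arrays at levels of -2.37, -2.0, -1.44 and -1.92, a mean of -1.93 ± 0.38 (SD, n = 4). Replicate 1 was the lowest and replicate 3 the highest, and the intensity stayed between 19.2 and 37.2. Neither of the 2 probes of Ppara, the PPAR of fatty acid oxidation in liver, was detected on any array. Of 15 PPAR target genes 11 (73.3%, against 50.8% of all named genes) were detected on all 4 arrays. Among the 11 were the fatty acid transporter Cd36 at 8.19 ± 0.09 and the lipid droplet protein Plin2 at 5.73 ± 0.19. The fatty acid carrier Fabp4 had a level of 3.35 ± 0.19 (SD, n = 4 for each). Pdk4, Ehhadh and Cyp4a1 were among those detected on no array. Pparg, which shares these targets, is not among the members.

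The receptors best known from liver and gut lay near background. Nr1h4, the bile acid receptor, was called on all 4 arrays by its 2 probes together, but by neither probe alone. One probe read -3.17, -1.88, -2.28 and -1.92 and was not detected on replicate 1. The other read -1.94, -1.77, -3.98 and -2.13 and was not detected on replicate 3. The probes therefore disagreed on which array was low.

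Nr1i2, the pregnane X receptor that senses foreign compounds, had levels of -2.20, -2.72, -2.43 and -2.55 and was detected on every array but replicate 2. Hnf4a, a regulator of hepatocyte genes, was detected on the same 3 arrays, with -2.11, -2.76, -2.42 and -1.72 for the brightest of its 3 probes. A second Hnf4a probe was detected on replicate 3 alone and the third on no array. Neither probe of Nr1i3, the constitutive androstane receptor, was detected on any array. With the less strict flag of the scanner software, Nr1i2 and Hnf4a counted as detected on all 4 arrays.

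The retinoid X receptors, the common partners of many of these receptors, differed in detection. Rxrb had levels of 1.33, 1.26, 1.36 and 1.26, a mean of 1.30 ± 0.05 (SD, n = 4), the smallest SD among the 21 detected members. Its second probe gave 0.95, 1.19, 1.05 and 0.85. Rxra, measured by a single probe, had levels of -1.27, -1.37, -1.91 and -1.27, a mean of -1.45 ± 0.31 (SD, n = 4), with replicate 3 below the others. Rxrg was not detected on any array.

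Among receptors for thyroid hormone, both genes were detected by more than one probe. Thra was read by a probe printed as 10 spots, with levels of 1.15, 0.98, 1.08 and 1.09, a mean of 1.08 ± 0.07 (SD, n = 4). The second probe of Thra gave -1.09, -0.96, -0.64 and -0.92 and was detected on every array. Thrb had levels of 2.12, 2.34, 2.36 and 1.84, a mean of 2.16 ± 0.24 (SD, n = 4). A second Thrb probe gave 0.24, 0.44, 0.30 and 0.15, and both probes were lowest on replicate 4. The third Thrb probe was detected on replicate 4 alone, at -2.87, and its spot lies in a region of that array, defined below, where unrelated spots were bright.

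Of the retinoic acid receptors, Rara alone was detected throughout. Its levels were 4.58, 4.19, 4.34 and 4.32, a mean of 4.36 ± 0.16 (SD, n = 4). The only spot of Rara lies in a bright region of replicate 3. Its signal over local background was highest on that array, at 109, against 86.7, 60.8 and 97.3 on replicates 1, 2 and 4. Rarg, with 1 probe printed as 2 spots, had levels of -3.08, -2.82, -3.78 and -4.22 and was detected on replicates 1 and 2, in each case by 1 of its 2 spots. Rarb, which retinoic acid is known to induce, was not detected by either of its 2 probes. Vdr, the vitamin D receptor, had levels of -1.30, -1.40, -2.12 and -1.23, a mean of -1.51 ± 0.41 (SD, n = 4), and was lowest on replicate 3.

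Of 11 measured targets of retinoic acid and vitamin D, 4 (36.4%) were detected on all 4 arrays, against 50.8% of all named genes. These 4 were Dhrs3, Tgm2, Camp and Rarres2. The retinoic acid hydroxylases Cyp26a1 and Cyp26b1, classic induced genes of the retinoic acid receptors, were detected on no array. Among 21 enzymes that make or degrade ligands, 8 (38.1%) were detected on all 4 arrays, against 50.8% of all named genes. Hsd11b1, which regenerates active glucocorticoid, had a level of 1.19 ± 0.16 (SD, n = 4). Cyp27a1, which makes an oxysterol, had one of 2.13 ± 0.18, and Cyp27b1, which activates vitamin D, one of -2.04 ± 0.11 (SD, n = 4). The 3 retinal dehydrogenases Aldh1a1, Aldh1a2 and Aldh1a3 and the 3 deiodinases of thyroid hormone, Dio1, Dio2 and Dio3, were detected on no array. Of 14 ligand carriers and transporters 9 (64.3%) were detected on all 4 arrays, against 50.8% of all named genes. Among the 9 was the retinoic acid carrier Crabp2 at -1.23 ± 0.13 (SD, n = 4), whereas Crabp1 was detected on no array.

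The glucocorticoid receptor gene Nr3c1 was detected by all 3 of its probes. The brightest gave 5.56, 5.52, 4.96 and 5.32, a mean of 5.34 ± 0.27 (SD, n = 4). The next gave 1.67, 1.35, 1.0 and 1.37 and the last 0.37, 0.75, 0.61 and 0.43. Replicate 3 was lowest for the first and the second probe, and replicate 1 for the last. The spot of the second probe lies in a bright region of replicate 4.

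Of 12 glucocorticoid receptor targets 7 (58.3%) were detected on all 4 arrays, against 50.8% of all named genes. Among the 7 were the leucine zipper gene Tsc22d3 at 1.89 ± 0.19 and the cochaperone Fkbp5 at 3.62 ± 0.08. The clock gene Per1 had a level of 2.68 ± 0.22 (SD, n = 4 for each). Dusp1, Il1r2, Zbtb16 and Errfi1 were detected on no array. All 11 measured chaperones of the steroid receptor complex were detected on all 4 arrays, against 50.8% of all named genes. The first in the list were Hsp90aa1 at 7.53 ± 0.13, Hsp90ab1 at 8.58 ± 0.21 and Fkbp4 at 4.48 ± 0.05 (SD, n = 4 for each). Chaperones have many clients besides receptors.

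Among the other steroid receptors, Nr3c2, the mineralocorticoid receptor, had levels of -1.68, -1.98, -2.21 and -1.56, a mean of -1.86 ± 0.29 (SD, n = 4). Its second probe was not detected on any array. Neither Esr1 nor Esr2, the oestrogen receptors, was detected. Pgr, the progesterone receptor, was detected on replicate 3 alone, as described further on.

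Esrra, an orphan receptor that controls mitochondrial genes, had levels of 5.43, 5.43, 5.67 and 5.28, a mean of 5.45 ± 0.16 (SD, n = 4). Its relatives Esrrb and Esrrg were not detected on any array. Of 12 genes known as mitochondrial or receptor targets in this group, Esrra itself included, 10 (83.3%) were detected on all 4 arrays. The share of all named genes was 50.8%. Examples of the 10 were Cycs at 5.74 ± 0.33, Atp5f1b at 5.47 ± 0.11 and Idh3a at 1.30 ± 0.04 (SD, n = 4 for each). Ppargc1a, the coactivator most closely tied to Esrra, was not detected, and neither was Perm1. The related Ppargc1b was detected on all 4 arrays, at -1.48 ± 0.17 (SD, n = 4).

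The NR4A receptors are immediate early genes that act without a classical ligand. Nr4a1 was read by 1 probe printed as 10 spots, with levels of -2.16, -2.48, -2.24 and -2.52, a mean of -2.35 ± 0.18 (SD, n = 4). Its median signal was 1.75 to 2.00 times the local background. The spots used on an array had SDs between 0.12 and 0.35, and 7 of 9 were well above background on replicate 2, against all spots used on the other arrays. For the 10-spot Thra probe the spot SDs were 0.07 to 0.21.

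**Figure D2:**
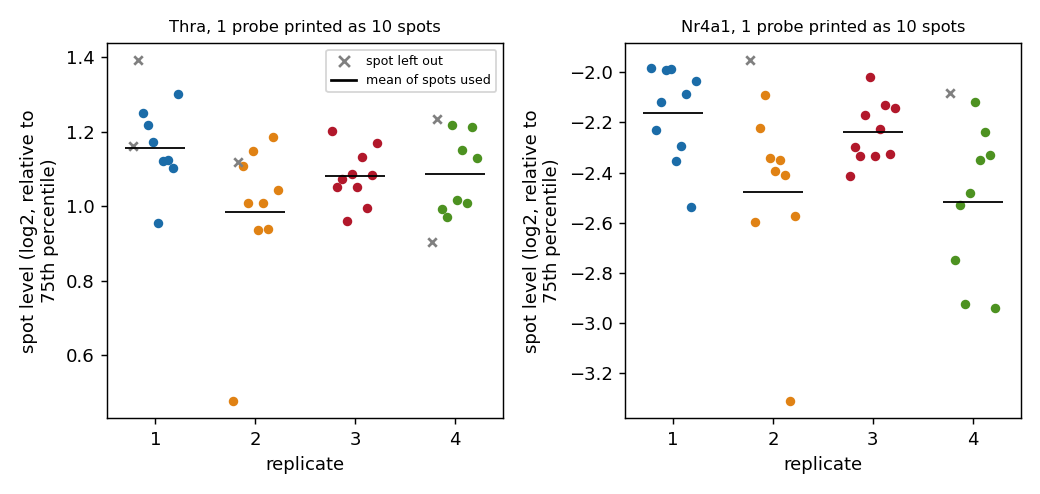
Spot levels (y axis, log2 relative to the array's 75th percentile) of the Thra and Nr4a1 probes that were printed as 10 spots, by replicate. Lines are means of the spots used and crosses are spots left out by the scanner flags; the spots of different replicates overlap for both genes.

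Nr4a2 had levels of -1.46, -1.92, -1.95 and -1.34, a mean of -1.67 ± 0.31 (SD, n = 4). Its second probe gave -1.95, -2.15, -2.32 and -2.59 and was also detected on all 4 arrays. The probes disagreed on replicate 4, which was the highest for the first and the lowest for the second. Nr4a3 was not detected on any array.

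The receptors that act as haem-binding repressors of the clock differed in detection. Nr1d2 had levels of -1.25, -1.17, -1.74 and -1.28 by one probe, a mean of -1.36 ± 0.26 (SD, n = 4), while its other probe was detected on no array. The single probes of Nr1d1 and of Rorb, an activator that binds the same DNA element, were detected on no array. Of 14 measured clock partners 12 (85.7%) were detected on all 4 arrays, against 50.8% of all named genes. Among the 12 was Bmal1 at -1.84 ± 0.28 (SD, n = 4). Clock was detected on no array by its 2 probes, and Npas2 on replicate 3 alone. The arrays give a single time, so they do not show whether a rhythm was present.

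Of 6 measured orphan receptors of the NR2 group, 4 were detected on all 4 arrays, against 50.8% of all named genes. Nr2f6 had levels of 4.73, 4.74, 4.73 and 5.20, a mean of 4.85 ± 0.23 (SD, n = 4), with 3 arrays close together and replicate 4 above them. Its median signal over local background was instead highest on replicate 3, at 188, against 135, 107 and 174 on replicates 1, 2 and 4. Nr2c1, known as a testicular orphan receptor, had levels of 1.55, 1.67, 1.56 and 1.62, a mean of 1.60 ± 0.06 (SD, n = 4). Its relative Nr2c2 had levels of -2.33, -2.11, -2.31 and -2.19, a mean of -2.24 ± 0.11 (SD, n = 4), and its other probe was detected on every array but replicate 1. The spot of that other probe lies in a bright region of replicate 3, where it read highest, at -1.60. Nr2f1 had levels of 1.26, 1.41, 1.47 and 1.44, a mean of 1.39 ± 0.09 (SD, n = 4), but its other probe was detected on no array. Nr2e1, a receptor of neural stem cells, was not detected.

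Nr0b2 is a receptor-like corepressor that lacks the DNA-binding domain. It had levels of -0.99, -0.86, -1.03 and -0.93, a mean of -0.95 ± 0.08 (SD, n = 4), and no array stood apart. Nr5a1, the regulator of steroid-producing tissue, was not detected. Coregulators, which receptors recruit to genes, were measured for 15 genes. Of these, 14 (93.3%) were detected on all 4 arrays, against 50.8% of all named genes. The corepressor Ncor1 had a level of 1.72 ± 0.27 and the coactivator Ncoa2 one of -1.97 ± 0.43 (SD, n = 4 for each). A gene takes its brightest probe, so a gene with several probes is usually dimmer when all are averaged. The mean over all probes was -0.95 for Ncor1, -3.20 for Ncoa2, 1.85 for Srebf1, 4.77 for Cd36 and -0.19 for Per1. It was -3.49 for Cyp27b1, -2.19 for Crabp2, 7.56 for Hsp90ab1 and 5.04 for Cycs.

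Detection depended on the probe for several members. Of the 16 genes with more than one probe, 4 were detected by every probe on all 4 arrays (Thra, Rxrb, Nr3c1 and Nr4a2) and 5 by some of their probes (Thrb, Nr1d2, Nr3c2, Nr2c2 and Nr2f1). For 7 no single probe was detected on all 4 arrays. With every probe required, 15 of the 40 genes counted as detected on all 4 arrays, against 45.0% of all named genes. The other 24 genes rest on 1 probe, where no such check exists. Which transcript each probe reads was not tested, as the files hold no probe sequence.

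**Figure D3:**
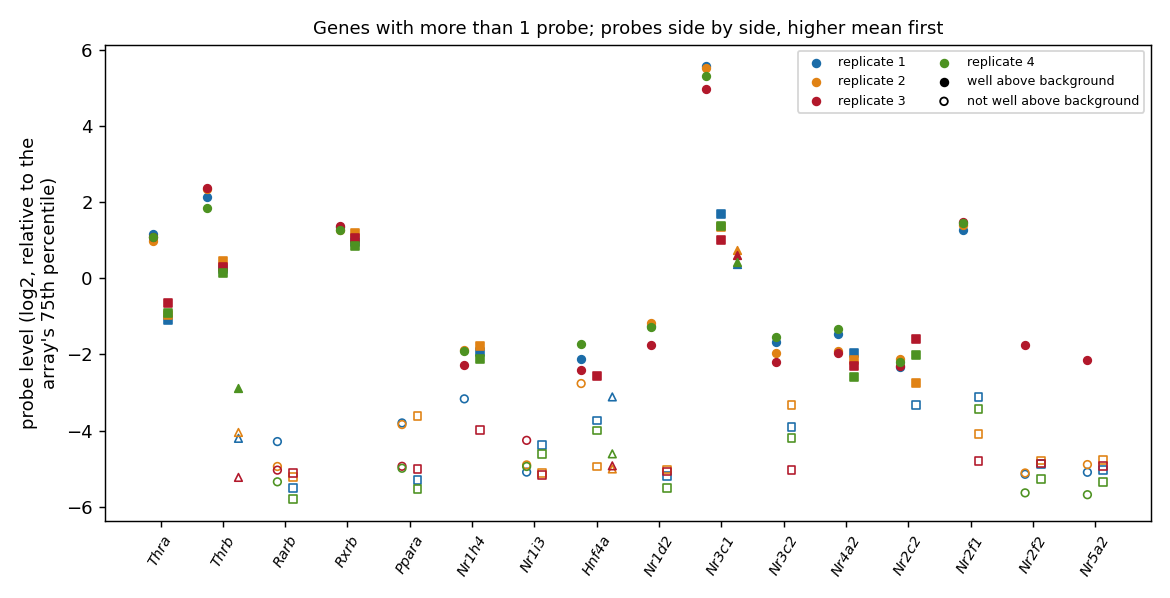
Probe levels (y axis, log2 relative to the array's 75th percentile) of the 16 receptor genes with more than one probe, with the probes of a gene side by side and coloured by replicate. Filled points are well above background; the Thrb, Nr1d2, Nr3c2 and Nr2f1 genes combine a detected probe with one that is mostly or wholly open.

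Pgr, Nr2f2 and Nr5a2 were each detected on replicate 3 alone. The levels of Pgr were -5.10, -5.08, -0.02 and -5.78, so that replicate 3 lay 5.06 above the next array. Nr2f2, a receptor of vessel and mesenchyme development, had -5.15, -5.11, -1.76 and -5.63 by one probe. The other probe of Nr2f2 was detected on no array. Among endothelial markers, Pecam1 had a level of 0.87 ± 0.13, Cdh5 one of -0.98 ± 0.58 and Vwf one of 4.78 ± 0.15 (SD, n = 4 for each). The mean over all probes of Vwf was 0.41. Kdr, Tek and Cldn5 were detected on no array. Nr5a2, a receptor of liver and pancreas, had -5.09, -4.89, -2.16 and -5.68 by one probe, and its other probe was detected on no array.

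The spots of these 3 genes all lie in a region of replicate 3 where unrelated spots were also bright. Neighbours within 6 rows and 3 columns that were not well above background on any other array numbered 31 around Pgr, 31 around Nr2f2 and 43 around Nr5a2. At least 1 log2 unit above every other array stood 25, 30 and 38 of them, against 3.11% of all such dim spots of replicate 3. Their median excess was 2.30 around Pgr, 3.14 around Nr2f2 and 1.91 around Nr5a2. With bright regions left out on all arrays, Pgr had no spot left, and Nr2f2 and Nr5a2, read by their other probes, were detected on no array. Esrrb, not well above background on any array, read -3.22 on replicate 1 against -5.30 or less on the others, and 3 of its 36 dim neighbours stood 1 log2 unit above, against 1.72% of all dim spots of replicate 1.

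**Figure D4:**
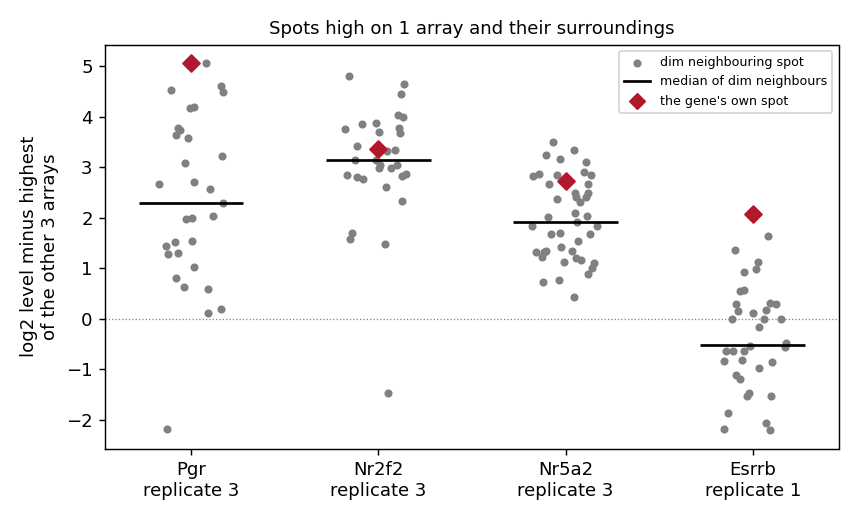
Excess of a spot on the named array over the highest of the other 3 arrays (y axis, log2) for 4 receptor genes and for their dim neighbours within 6 rows and 3 columns. Diamonds are the gene's own spot and lines the medians of the neighbours, which are 2.30, 3.14 and 1.91 around Pgr, Nr2f2 and Nr5a2 and -0.51 around Esrrb.

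The spread between replicates was set against that of all detected genes. The 21 detected members had a median SD of 0.234 on the log2 scale, or 1.18-fold, with SDs from 0.051 for Rxrb to 0.597 for Nr1h4, against a median of 0.165 over 8424 detected named genes. Members with a mean level under 0 had a median SD of 0.300 (n = 10 genes), against 0.236 for 2243 named genes in that range. Members at or over 0 had one of 0.158 (n = 11 genes), against 0.147 for 6181 named genes. Without replicate 3 the median SD of the members was 0.128 and without replicate 4 it was 0.137, while without replicates 1 and 2 in turn it was 0.269 and 0.258. For all detected genes it lay between 0.150 and 0.162 when 1 array was left out.

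Replicate 3 was lowest for 6 of the 10 members under a level of 0, namely Vdr, Rxra, Nr1d2, Nr3c2, Nr4a2 and Nr0b2. Of all 2243 detected named genes in that range, 33.1% were lowest on replicate 3. The median deviation of the 10 members from their 4-array mean was -0.18 on that array, against -0.05 for all named genes in the range. The direction depended on the scaling, since with the array median replicate 3 was lowest for 1 of the 10 and their median deviation there was 0.25. That scaling shifts every gene of an array alike, so the members' median kept its distance from that of the named genes. With normexp on median signals replicate 3 was lowest for 3 of the 10, with a median deviation of -0.01. For Vdr the deviation was -0.61 and for Rxra -0.45. Not all members shared it, since Ppard lay 0.49 above its mean there. Among the 11 members at or over 0, replicate 4 was lowest for 5, against 33.2% of all named genes in that range, and replicate 3 for 1, Nr3c1, against 18.7%. A relation between these deviations was not tested, as 4 arrays are too few for a correlation.

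**Figure D5:**
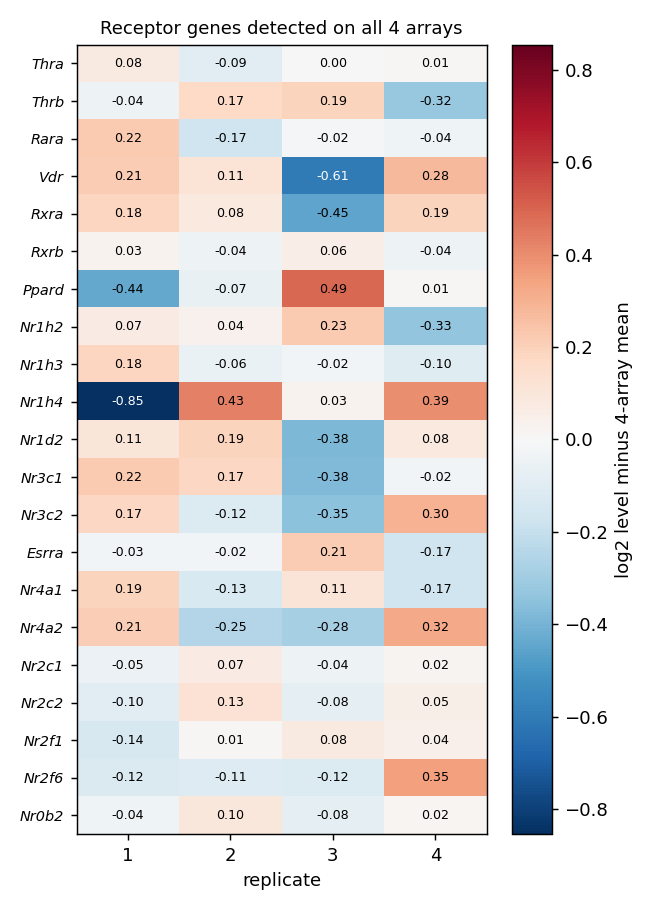
Deviation of each detected receptor gene (rows) from its 4-array mean on replicates 1 to 4 (columns), in log2 units, with red above and blue below the mean. Vdr (-0.61), Rxra (-0.45), Nr1d2 and Nr3c1 (both -0.38) are low on replicate 3, and Nr1h4 (-0.85) is low on replicate 1. With scaling to the array median, Rxra was lowest on replicate 2 instead.

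Several members are neighbours in the rat genome, in the RefSeq annotation of GRCr8. Thra and Nr1d1 overlap on opposite strands of chromosome 10, and Rara follows with 5 protein-coding genes between. Chromosome 15 holds Nr1d2, Thrb and Rarb, with 1 protein-coding gene between Nr1d2 and Thrb and none between Thrb and Rarb. On chromosome 10, Thra and Rara were detected on all 4 arrays and Nr1d1 on none. On chromosome 15, Nr1d2 and Thrb were detected and Rarb was not. Nr1d1 was thus at background although both probes of the overlapping Thra gene had a signal on every array.

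Promoter sequences, from 250 bases before to 50 bases after the annotated start (RefSeq, GRCr8), were matched for 35 of the 40 measured genes. The CpG ratio is the number of CG pairs over that expected from the C and G content, and 0.6 or more is a common mark of a CpG-rich promoter. Of 18 members detected on all 4 arrays 13 reached it, and of 12 detected on no array 8 did. Over all named genes the shares were 73.3% of 7040 detected genes and 27.7% of 4913 genes detected on no array. All 5 members detected on some arrays were below 0.6. Receptor genes without signal were mostly CpG-rich, and no test was made of this. Of the 4 promoters printed here, chosen after the values were seen to show both kinds with and without signal, Rxra and Nr1h3 were detected and Ppara and Nr1i3 were not. They are given 5′ to 3′ on the strand of the gene, with CG pairs in capitals.
Rxra: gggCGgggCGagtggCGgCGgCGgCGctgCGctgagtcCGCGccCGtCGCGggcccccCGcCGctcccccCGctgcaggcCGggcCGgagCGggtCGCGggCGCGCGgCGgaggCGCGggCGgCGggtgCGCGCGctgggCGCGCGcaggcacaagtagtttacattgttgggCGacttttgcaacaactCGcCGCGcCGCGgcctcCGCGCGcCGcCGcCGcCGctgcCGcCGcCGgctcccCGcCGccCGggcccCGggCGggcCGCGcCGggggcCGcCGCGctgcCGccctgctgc
Ppara: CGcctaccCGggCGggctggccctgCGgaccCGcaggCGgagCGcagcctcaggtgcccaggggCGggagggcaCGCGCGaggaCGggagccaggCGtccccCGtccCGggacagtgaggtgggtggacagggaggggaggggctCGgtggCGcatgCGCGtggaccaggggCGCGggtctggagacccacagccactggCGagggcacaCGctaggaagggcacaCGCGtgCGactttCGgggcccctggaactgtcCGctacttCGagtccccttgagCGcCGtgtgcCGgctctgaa
Nr1h3: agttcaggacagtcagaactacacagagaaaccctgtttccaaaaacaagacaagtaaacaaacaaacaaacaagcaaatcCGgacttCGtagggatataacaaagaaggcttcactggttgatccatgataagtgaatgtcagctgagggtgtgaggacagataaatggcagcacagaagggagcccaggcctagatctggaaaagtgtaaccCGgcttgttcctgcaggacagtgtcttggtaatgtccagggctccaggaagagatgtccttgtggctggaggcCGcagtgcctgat
Nr1i3: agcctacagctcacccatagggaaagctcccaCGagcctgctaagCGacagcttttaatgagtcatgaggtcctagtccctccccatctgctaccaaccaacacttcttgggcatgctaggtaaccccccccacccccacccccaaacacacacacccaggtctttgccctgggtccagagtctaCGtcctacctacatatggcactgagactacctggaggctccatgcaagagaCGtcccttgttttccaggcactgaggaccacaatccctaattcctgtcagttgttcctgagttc
The Rxra window (chr3:31387642-31387941, plus strand) holds 62 CG pairs at 84.7% GC, a ratio of 1.15. The Ppara window (chr7:118712357-118712656, plus strand) holds 32 at 73.7% GC, a ratio of 0.802. Those of Nr1h3 (chr3:97623180-97623479, minus strand) and Nr1i3 (chr13:86165170-86165469, plus strand) hold 4 each, with ratios of 0.236 and 0.197.

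The AGGTCA element that many receptors of this family bind, searched on both strands, was present in the windows of Nr1d2, Rarg and Nr5a2. That is 1 of 18 members detected on all 4 arrays, 2 of 5 detected on some and 0 of 12 detected on none, against 15.7% of 27457 promoters of the same length. The GC box GGGCGG, on either strand, was present in 13 of the 18, in 3 of the 5 and in 2 of the 12. Among all named genes it was present in 61.6% of detected and 31.2% of undetected ones. The E-box CACGTG was present in Nr0b2, Esr2 and Nr5a1, against 6.65% of all promoters. A match is a description of these letters and not of a bound site.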

How the data were processed

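Total RNA of 4 samples was labelled with Cy3 and measured on 1-colour Agilent rat arrays, 1 array per sample. The scans were read with Agilent Feature Extraction, whose version is 11.0.1.1 in the submitters' processing notes. Each deposited file gives a linear intensity per spot. Per the file headers, these intensities are background-subtracted and detrended within the array, with no normalization between arrays. The software's spot flags (outlier, well above background) were used as given. The arrays share one slide and scan, so no batch could be tested.

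The files hold no gene names: accessions without version were matched to the RefSeq table of GRCr8, which named 21109 probes and left 24489 unnamed. The grid was built on another assembly, so only promoter windows carry coordinates. Spots flagged as outliers were left out (750 to 1551 per array). Log2 intensities were averaged over a probe's spots and set relative to the array's 75th percentile over non-control probes, an intensity of 83.8 to 127. A gene takes the probe with the highest mean among those measured on all 4 arrays, and is detected on an array when any probe is. Bright regions are blocks of 16 rows and 8 columns where over 10% of unnamed spots stood 1 log2 unit above every other array. The code was tested on simulated data.

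The members, the 10 pathway lists and 8 marker lists were chosen with earlier results of these data known. Every member is accounted for, and the first 3 measured genes of a list could be named with values, of which some are not reported here. With 1 group no comparison between conditions was made or tested. Dixon's test was applied to each receptor gene to find arrays far from the other 3. The number of arrays limits the precision. Software was Python 3.11.15 with numpy 2.4.6 and pandas 2.3.3, and R 4.3.3 with limma 3.58.1 for one alternative.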

Additional observations from a re-analysis of the deposited data

Results flagged for a closer look

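For 6 of the 40 measured receptor genes, 1 array lay so far from the other 3 that the gap passed the limit of Dixon's test for 4 samples. Chance alone does this in about 1 in 20 groups, and 40 genes were examined.

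Pgr on replicate 3 (-0.0229) and Nr2f2 on replicate 3 (-1.76) were high, and both spots lie in the bright region described above. Around Pgr 25 of 31 dim neighbours, and around Nr2f2 30 of 31, stood 1 log2 unit above every other array. Replicate 3 stayed highest for both under each scaling, but the gap no longer passed the limit with normexp for Pgr, or with normexp, the array median or the mean of all probes for Nr2f2. Esrrb on replicate 1 (-3.22) was high and Esrrg on replicate 4 (-5.49) was low, and neither gene was detected on any array. The Esrrg gap no longer passed the limit after quantile normalization, with the array median, with the 75th percentile over detected probes or with normexp. The Esrrb gap no longer passed it with the array median or with normexp.

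Rxra was low on replicate 3 (-1.91), by 0.54 below the next array. The gap no longer passed the limit after quantile normalization, with outlier spots kept, without bright regions or with the 75th percentile over detected probes. Under each of these settings replicate 3 stayed lowest. Rxra was lowest on replicate 2 with scaling to the array median and on replicate 4 with normexp on median signals. Nr2f6 was high on replicate 4 (5.20), by 0.46 above the next array. The gap passed the limit also with outlier spots kept and without bright regions, but not after quantile normalization. Nr2f6 was highest on replicate 3 with the array median and with normexp.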

How the results depend on the processing

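The number of receptor genes detected on all 4 arrays was 21 and stayed between 15 and 24 under the alternatives. It was 24 with the less strict flag, which added Rarg, Nr1i2 and Hnf4a, against 61.7% of all named genes, and 23 with 3 of 4 arrays, against 54.0%. It was 15 when every probe was required, against 45.0%, and 20 of 37 without bright regions, where Rara, Pgr and Nr2e1 had no spot left, against 50.7%. Leaving out 1 replicate at a time gave 21 to 23. The number detected on no array, 13, was 4 with the less strict flag, 19 when all probes were required, 14 of 37 without bright regions, and 13 to 16 with 1 replicate left out. The median SD of 0.234 lay between 0.128 (normexp) and 0.355 (array median) over the other settings, and at 0.297 over all 40 measured members. With the array median, which lies near background, the median deviation of the members was -0.25 on replicate 2, 0.41 on replicate 3 and -0.24 on replicate 4, against 0.01, -0.02 and 0.02. Each of these scalings subtracts the same value from every probe of an array, so the change was the same for all named genes. Scaling by other percentiles moved the zero of the levels for all 40 members, and the mean of all probes moved 8. Normexp, with an offset of 50, moved all 40 unevenly. Rarb went from -4.90 to -1.32 and Nr1h3 from 6.31 to 5.42, so dim genes lay closer together. Normexp used median signals, chosen after the data were seen, since the planned mean signals were not used here. Signals within about 3 times the local background limit 10 of the 21 detected genes. No paired analysis was possible because there is only 1 group.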

Other observations

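Among the clock partners, 2 genes were singled out after their values were seen. Npas2 read -5.10, -5.08, -0.85 and -5.71 over replicates 1 to 4. Per2 read -1.04, -1.48, -0.04 and -1.21. The spots of both lie in a marked bright region of replicate 3. Of 308 negative-control spots, 7 were well above background on replicate 3, and 1 of them lay outside the marked regions. On replicates 2 and 4 there were 2 and 4 such spots, all outside the marked regions, and on replicate 1 there were 0.

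All 26 receptor probes detected on all 4 arrays exceeded the 99th percentile of negative controls outside bright regions on every array, as did 5 of 11 probes detected on some arrays and 0 of 22 detected on none. Against the 99th percentile of all negative controls, a setting chosen after the data were seen, which was -1.11 on replicate 3, the counts were 17 of 26, 0 of 11 and 0 of 22.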
